A study of Hordeum vulgare subsp. vulgare with 8 samples.

Results

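Among the alternative splicing (AS) events of germinating barley embryos, 320 were listed in at least 7 of the 8 libraries, out of 8325 distinct events of alternative 3' splicing (A3S) and alternative 5' splicing (A5S). These are called recurrent events below. An event was taken as the same when its AS type, transcript and the coordinates of its 3 exons were the same, and the number of libraries alone chose the members, so that number is a description and not a finding. Of the 320 events, 231 were A3S and 89 were A5S, 173 were listed in all 8 libraries and 147 in 7. They lay in 287 of the 4634 genes with an event. They are set beside the 5195 events that were listed in 1 library only (3401 A3S and 1794 A5S), called single-library events.

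The libraries were made from embryos of the barley (Hordeum vulgare subsp. vulgare) varieties Bass, Harrington, Stirling and Baudin after 48 h and 24 h of germination in the dark. All seeds came from 1 field trial, and embryos of many seeds were pooled for each RNA extract. There was 1 library for each variety and time, with no replicate, so the 4 varieties were the only spread at a time point and this spread holds genetic differences as well as technical ones. The p-values given further on measure only the spread between these libraries. Values of the 4 varieties are given in the order Bass, Harrington, Stirling, Baudin, and varieties are named where fewer are given.

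In A3S the upstream exon is joined to a new start of the next exon, and in A5S a new end of an exon is joined to the next. A shift between the sites by a multiple of 3 nucleotides (nt) leaves the reading frame in place, whereas other shifts move it, which often brings a premature stop codon and decay of the transcript. Acceptors that lie a single codon apart, known as tandem or NAGNAG acceptors, are a common source of small, frame-keeping A3S in plants and animals. Retention of a whole intron is another widespread form of AS in plants.

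Each library listed between 287 (Harrington at 24 h) and 313 (Stirling at 24 h) of the 320 recurrent events. They made up between 12.1% (Bass at 24 h) and 17.5% (Harrington at 48 h) of the events of a library. The absences were spread unevenly, since 33 recurrent events were absent from Harrington at 24 h and 7 from Stirling at 24 h. The next events below the threshold, listed in 6 libraries, numbered 176. Annotated exons had a median depth of 38.3 for A3S listed in 7 libraries and 26.7 for A3S listed in 6. For A5S it was 26.2 for events listed in 7 libraries and 41.1 for those listed in 6. Depth here is the deposited mean number of reads over the bases of the exon that were covered, not divided by library size.

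A distance of 3 nt between the annotated and the alternative acceptor was by far the most frequent among recurrent A3S. It was found in 75 of 231 recurrent A3S events (32.5%, 95% Wilson interval 26.8% to 38.8%), against 169 of 3401 single-library A3S events (4.97%, 4.29% to 5.75%). These intervals, like all others given here, cover counting error only. Of the 75 events, 62 shortened the exon by 3 nt and 13 lengthened it, each in a gene of its own. No other short distance stood out in this way. A distance of 4 nt was found in 8 recurrent A3S events (3.46%), against 5.76% of single-library A3S events, and a distance of 6 nt in 14 (6.06%) against 4.44%. Distances of 13 to 30 nt made up 13% of recurrent A3S events and 25.7% of single-library A3S events.

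**Figure D1:**
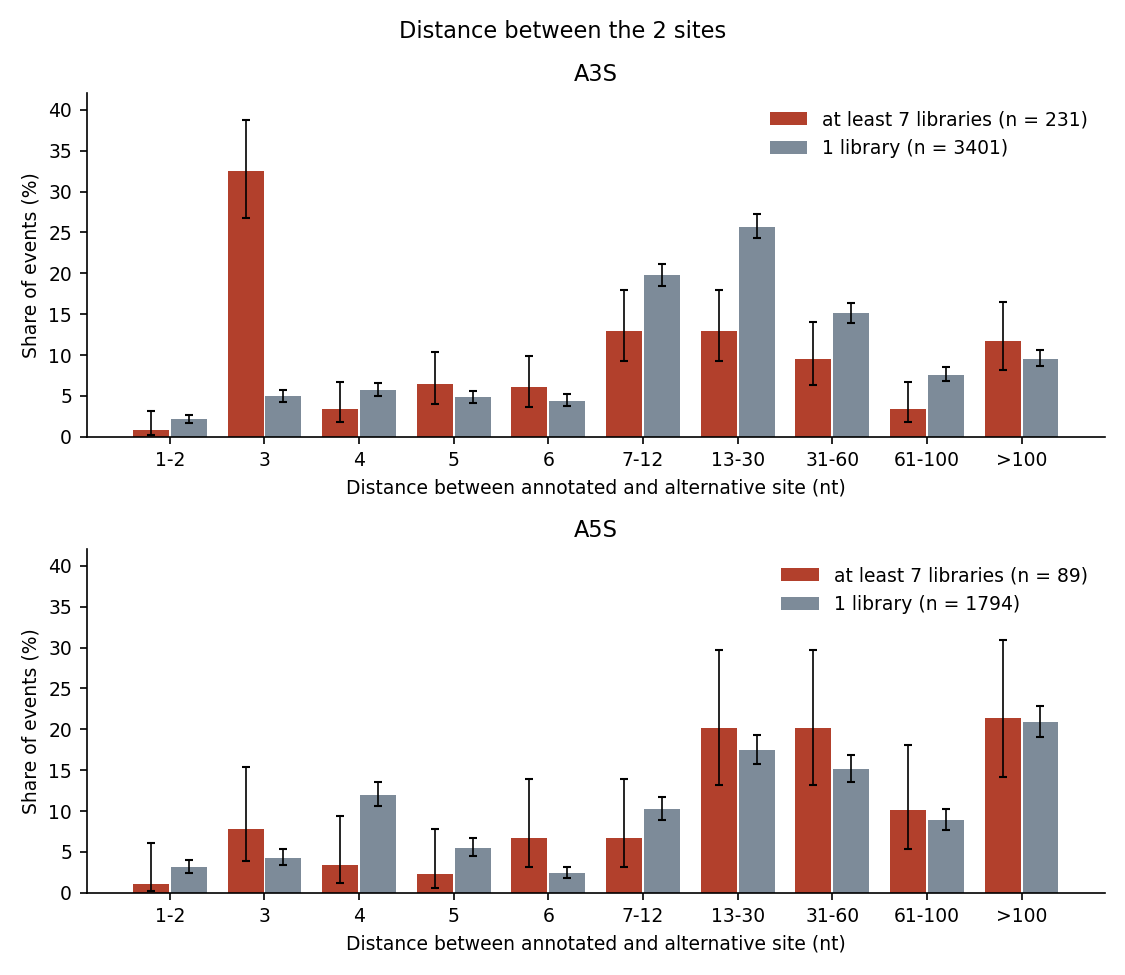
Share of A3S events (upper panel) and A5S events (lower panel) in each class of distance between the annotated and the alternative site, in nt, for events listed in at least 7 libraries (red) and in 1 library (grey). Error bars are 95% Wilson intervals for counting error. The red bar at 3 nt in A3S stands at 32.5% and the grey one at 4.97%, while at 4 nt in A5S the red bar stands at 3.37% and the grey one at 12%.

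The share of A3S events with a distance of 3 nt was greater in every further number of libraries that listed them. It was 4.97% in events of 1 library, 9.02% of 2, 10.7% of 3, 12.1% of 4, 21.0% of 5, 26.4% of 6, 28.4% of 7 and 35.3% of all 8 libraries. The threshold of 7 libraries therefore fell within a gradual series. The median distance between the acceptors was 7 nt in recurrent A3S events (95% interval 6 to 10) and 17 nt in single-library A3S events (16 to 18).

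**Figure D2:**
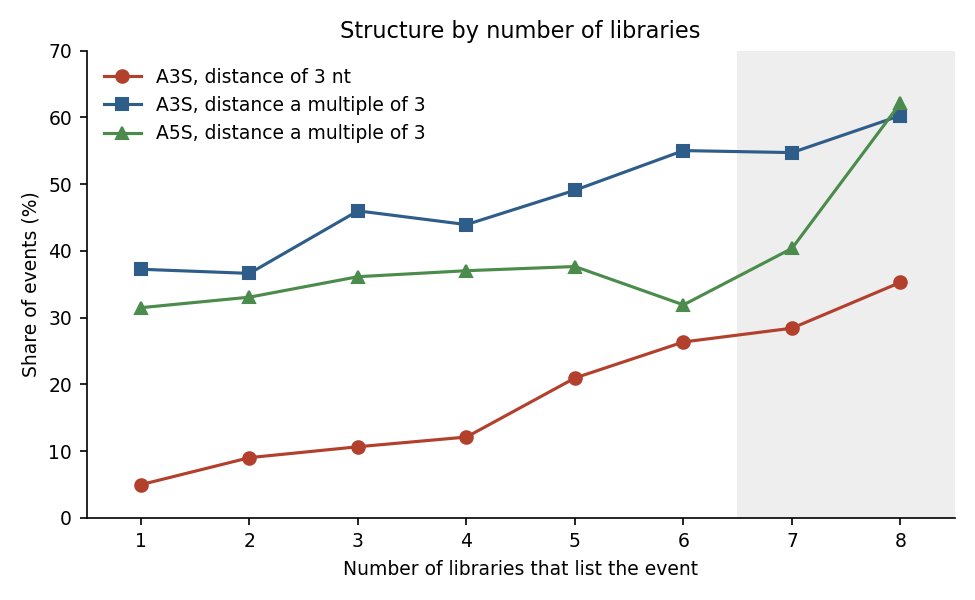
Share of A3S events with a distance of 3 nt (circles), of A3S events with a distance that is a multiple of 3 (squares) and of A5S events with such a distance (triangles), in percent, against the number of libraries that list the event. The grey area holds the recurrent events. The circles climb between 4.97% at 1 library and 35.3% at 8 libraries, and the triangles stand at 40.4% and 62.2% in the grey area.

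Recurrent events lay in more deeply read exons than single-library events. The median depth was 39.2 against 26 for A3S and 32.6 against 24.3 for A5S, and within single libraries it was between 33.7 and 43.4 for recurrent events of both types and between 20.1 and 33.3 for single-library events. The depths overlapped widely. In 33 recurrent A3S events and 14 recurrent A5S events the annotated exon was under a depth of 20 in every library that listed them. Of the single-library events, 1863 had an annotated exon for which a depth was given in at least 1 other library. In 1135 of these (60.9%) the exon was at least as deep in the deepest such library as in the library listing the event. Where several other libraries gave a depth, taking the deepest raises this share. The share therefore does not show how often an event was unlisted at equal depth.

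Single-library events were therefore weighted so that their exon depths, in 2-fold bins, had the distribution of the recurrent events. With depth matched in this way, 4.47% of single-library A3S events had a distance of 3 nt, and the value of the single libraries was between 2.67% and 5.49%, all 8 below the 32.5% of recurrent events. The median distance of single-library A3S events was 18 nt after matching. In exons with a depth from 4 to 8, 25% of 12 recurrent A3S events and 4.82% of 394 single-library A3S events had a distance of 3 nt. In exons with a depth from 64 to the next edge of the bins it was 46.2% of 39 recurrent events and 2.03% of 394 single-library events. At the ends of the depth range the recurrent events were few, and 0 of the 2 in the shallowest bin and 0 of the 9 in the deepest bin had a distance of 3 nt.

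**Figure D3:**
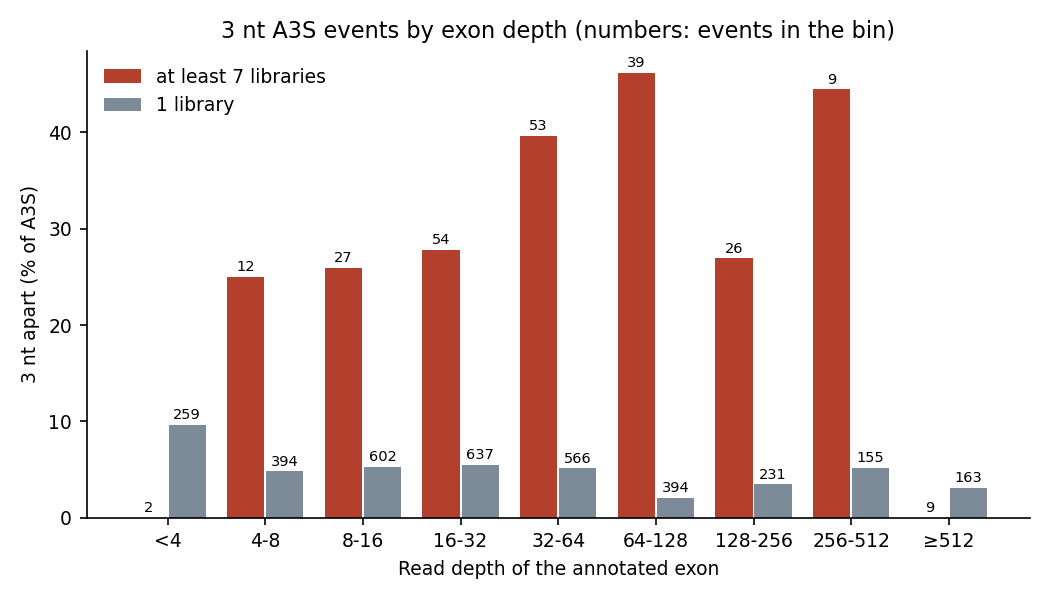
Share of A3S events with a distance of 3 nt, in percent, by read depth of the annotated exon in 2-fold bins (the lower edge belongs to the bin), for events listed in at least 7 libraries (red) and in 1 library (grey). Numbers above the bars are the events in the bin. The red bars are above the grey ones in the 7 bins between the shallowest, with 2 recurrent events, and the deepest, with 9.

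Distances that are a multiple of 3, called keeping the frame here, were more frequent in recurrent events. Whether a site lay in coding sequence, or a stretch held a stop codon, was not examined. The distance was a multiple of 3 in 134 of 231 recurrent A3S events (58.0%, 51.6% to 64.2%), against 37.3% of single-library A3S events both before and after matching for depth. Without the events 3 nt apart the shares were 37.8% (59 of 156, 30.6% to 45.6%) and 34.0% (1098 of 3232), and these intervals overlap. In A3S the greater share thus lay in the distance of 3 nt.

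In A5S the frame was kept over other distances. It was kept in 44 of 89 recurrent A5S events (49.4%, 39.3% to 59.6%), against 31.5% of single-library A5S events and 31.8% with depth matched. The matched value of the single libraries was between 22.6% and 33.8%. A distance of 3 nt was found in only 7 recurrent A5S events (7.87%), against 4.29% of single-library A5S events, and without it the shares were 45.1% (37 of 82, 34.8% to 55.9%) and 28.4% (488 of 1717). Among A5S events up to 30 nt apart other than 3 nt, 19 of 36 recurrent events (52.8%) and 209 of 911 single-library events (22.9%) kept the frame. These single-library events include 215 that were 4 nt apart, a distance that cannot keep it. Over 30 nt apart, 18 of 46 recurrent events (39.1%, 26.4% to 53.5%) and 279 of 806 single-library events (34.6%, 31.4% to 38.0%) kept the frame, and these intervals overlap. Over all distances the share was 40.4% in A5S events listed in 7 libraries and 62.2% in the 37 listed in all 8. The events listed in 6 were at 31.9%.

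A distance of 4 nt was the class in which recurrent A5S events fell short most clearly. It was found in 3 of 89 recurrent A5S events (3.37%, 1.15% to 9.45%) and in 215 of 1794 single-library A5S events (12%, 10.6% to 13.6%). Donors 4 nt apart shift the frame. The median distance of A5S was 33 nt in recurrent events (22 to 45) and 24 nt in single-library events (21 to 27), so that in A5S, in contrast to A3S, it was not shorter in recurrent events.

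The direction of the change and the lengths of exons and introns differed less. The alternative exon was longer than the annotated one in 33.3% of recurrent A3S events (27.6% to 39.6%), against 26.8% of single-library A3S events and 27.2% with depth matched, a value just below that interval. For A5S the exon was longer in 47.2% of recurrent and 47.4% of single-library events. The median length of the annotated exon was 166 nt (144 to 197) in recurrent A3S and 172 nt in depth-matched single-library A3S events, and 147 nt (127 to 166) against 160 nt in A5S. The median intron was 166 nt (133 to 279) against 158 nt in A3S and 189 nt (137 to 372) against 195 nt in A5S. All of the matched values of length lay within the intervals of the recurrent events. A3S made up 72.2% of recurrent events (67.0% to 76.8%), against 65.8% of depth-matched single-library events, and the matched share was below 72.2% in 7 of 8 libraries, the exception being Bass at 48 h with 73.5%.

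Recurrent events had another alternative at their annotated site more often than single-library events, although most had none. Another listed alternative of the same annotated site was known for 85 of 231 recurrent A3S events (36.8%, 30.8% to 43.2%) and for 39 of 89 recurrent A5S events (43.8%, 34.0% to 54.2%). The shares of single-library events were 20.7% for A3S and 20.3% for A5S, with no matching for depth. Of the 287 genes, 261 had 1 recurrent event and 26 had at least 2, and 10 had recurrent events of both types. The 287 genes had 580 further events, and 164 of the genes had an event that was listed in 1 library only.

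Tandem acceptors were found also away from the annotated site. There were 14 pairs of recurrent A3S events at the same annotated acceptor, in 7 genes, and in 4 pairs the alternative acceptors were 3 nt apart. Of the 244 pairs in which both A3S events were single-library events, 9 had this gap (3.69%). The 4 pairs were in MLOC_12130 (exon longer by 317 and 320 nt), MLOC_12272 (17 and 20 nt), MLOC_7019 (430 and 433 nt) and MLOC_27537 (shorter by 24 and 27 nt). MLOC_27537 is described as Regulator of nonsense transcripts 3A, a homologue of the UPF3 proteins that act in nonsense-mediated decay. Its other recurrent event had a distance of 3 nt at another exon (LG05, plus strand, annotated exon 26174369 to 26174471), where LG05 is the name of the linkage group in the deposited lists.

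The gene with the most recurrent events was MLOC_51316, described as an unknown protein. Its intron on LG01 (plus strand) ran between exons at 35782484 to 35782559 and 35783024 to 35783122, and 4 recurrent A3S events started the second exon 58 or 54 nt earlier or 2 or 9 nt later. A recurrent A5S event lengthened the first exon by 232 nt into the same intron. Of these 5 changes, those of 54 and 9 nt are multiples of 3. MLOC_12130 had 4 recurrent A3S events, of which 3 lengthened the same exon (LG10, plus strand, 73996741 to 73996805) by 1000, 320 and 317 nt, and MLOC_7019 had 3 recurrent events in 1 intron.

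Of the deepest recurrent events, several were in genes of ribosomal proteins. Such genes were 4.39% of the described genes with recurrent events, against 3.80% of other described genes. The deepest A3S event, in MLOC_56615 (LG01, minus strand, annotated exon 67839172 to 67839414), shortened its exon by 50 nt. The exon of the 40S ribosomal protein S7 gene MLOC_55595, shortened by 4 nt, had a depth of 916, 831, 970 and 923 at 48 h, against 695, 816, 831 and 946 at 24 h. That of MLOC_34508, a ribosomal protein, was lengthened by 32 nt at a depth between 1012 and 1623 in the 8 libraries. For MLOC_80476, described as Wali6, a protein first known as induced by aluminium in wheat, the exon was shortened by 31 nt, at depths of 1782, 686, 1177 and 684 at 48 h, against 319, 1139, 658 and 397 at 24 h. Depths of the 2 times overlapped in the last 3 genes.

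Among A5S the deepest were MLOC_5129 (60S ribosomal protein L35, shortened by 35 nt), MLOC_7688 (60S acidic ribosomal protein P0, part of the stalk of the large subunit, shortened by 3 nt) and MLOC_59149 (a lectin, a carbohydrate-binding protein, shortened by 44 nt). MLOC_5129 was absent from the list of Bass at 48 h, and its median depth was 2646. The exon of MLOC_7688 was read at 1541, 2206, 2002 and 2246 at 48 h, against 1858, 1562, 1948 and 1646 at 24 h. These depths overlap between the times.

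For the other events named in the study's pathways, MLOC_69727 (Viviparous 1, a transcription factor of seed maturation and abscisic acid response) had an A3S event 3 nt shorter in all 8 libraries (LG02, minus strand, annotated exon 39264799 to 39264899). The depth was 13, 5.84, 14.3 and 9.05 at 48 h, against 2.98, 3.60, 17.9 and 7.58 at 24 h. The groups overlap, and the difference did not pass the test described further on (limma, adjusted p = 0.196). MLOC_65332, an auxin responsive protein of the AUX/IAA family, which represses the response to auxin, was 3 nt longer in all 8 libraries, at a depth of 8.46 to 27.2 (limma, adjusted p = 0.32).

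To see how much of the stretch between the sites was in the transcripts, its depth was divided by the depth of the part of the exon that both forms share. The ratio differed with the distance and with the direction of the change. In single-library A3S events that shorten the exon, its median was 0.172 at a distance of 4 nt and 0.982 over 100 nt. In those that lengthen it, the median was 0.379 at 3 nt, 0.0702 at 31 to 60 nt and 0.136 over 100 nt. The ratio therefore compares like distances, or 1 event between libraries, and is not the share of transcripts that use a site. In recurrent A3S events that shorten the exon by 3 nt the median ratio was 0.25, against 0.139 in single-library events of the same kind. The quartiles were wide, at 0.0507 to 0.517 and 0 to 0.403. The stretch depth came out below 0, and was set to 0, in 102 of 473 recurrent and 44 of 127 single-library values. Each recurrent event entered with the median of its libraries and each single-library event with 1 value, and depth was not matched. Whether these medians differ was not tested.

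Recurrent events with a distance of 3 nt differed in their ratio and in how far it varied between the libraries. In MLOC_7409, a small nuclear ribonucleoprotein-like protein and hence akin to core parts of the spliceosome, the 3 nt stretch had a ratio of 0.965, 0.975 and 0.98 in Bass, Harrington and Baudin at 48 h and of 0.934, 0.973, 0.941 and 0.921 at 24 h. In MLOC_38289, in contrast, the exon was 3 nt longer at a ratio between 0.0158 and 0.0885. In MLOC_17056, 3 nt shorter, it lay between 0.469 and 1.33 over the 7 libraries that listed the event. The stretch was thus read about as deeply as the rest of the exon in MLOC_7409 and seldom in MLOC_38289.

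The greatest difference in the ratio was found where the exon was lengthened by more than 100 nt into the intron. There were 21 recurrent A3S events of this kind, in 18 introns of 18 genes, and 19 recurrent A5S events in 19 genes. The median ratio was 1.13 in the A3S events, against 0.136 in 191 single-library events and 0.171 with depth matched. In A5S it was 0.601, against 0.116 in 278 single-library events and 0.2 with depth matched. The A3S median is the value of the 1000 nt stretch of MLOC_12130, a gene with several of these events in 1 intron. Only the depth of the annotated exon was matched. Listing needs reads at the alternative site, so the ratio is not independent of the rule that chose the recurrent events. The stretch was read at least at 0.5 of the shared part in 14 of 21 recurrent A3S events (66.7%), against 38 of 191 (19.9%), and in 12 of 19 recurrent A5S events (63.2%), against 71 of 278 (25.5%). All 19 recurrent A5S events over 100 nt lengthened the exon, against 278 of 375 single-library A5S events. Of recurrent A3S events over 100 nt, 21 of 27 lengthened it, against 191 of 325.

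This held in each library for A3S. The median ratio of recurrent A3S events was lowest in Harrington at 48 h (0.908) and highest in Stirling at 48 h (1.23), while single-library A3S events lay between 0.0818 and 0.256. For A5S the recurrent events were between 0.462 and 0.805. The single-library A5S events were between 0.0538 and 0.18 in 7 libraries and at 0.792, over 18 events, in Bass at 48 h, where the recurrent events were at 0.805.

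**Figure D4:**
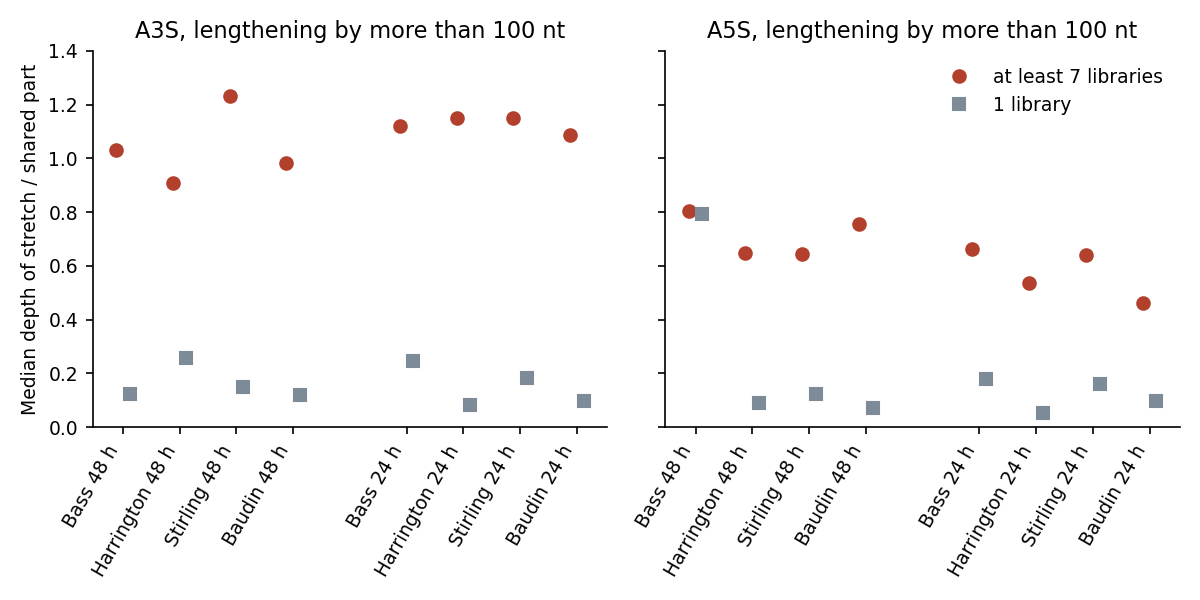
Median ratio of the read depth of the stretch between the sites to that of the shared exon part, for A3S (left panel) and A5S events (right panel) that lengthen the exon by more than 100 nt, in each library, with 48 h left of 24 h. Red circles are events listed in at least 7 libraries and grey squares events listed in 1 library. The circles are above the squares in all 8 libraries, and in A5S of Bass at 48 h by the small gap between 0.805 and 0.792.

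Several of these stretches were deeper than the annotated exon itself. MLOC_18525, described as an RNA-binding protein, had a ratio of 1.49, 1.51, 1.93 and 1.37 for the A3S stretch of 224 nt at 48 h, against 1.29, 1.29, 2.24 and 1.4 at 24 h. In MLOC_17069, the large subunit A of the splicing factor U2AF, which recognises the polypyrimidine tract before the acceptor, it was 1.68, 0.864, 1.43 and 2.11 at 48 h, against 1.82, 2.05, 1.86 and 1.09 at 24 h, for 165 nt. For MLOC_44001, related to LUC7, a yeast protein of the U1 small nuclear ribonucleoprotein, it was 1.75, 2.10, 4.57 and 1.45 at 48 h, against 1.85, 2.12, 2.67 and 2.53 at 24 h, for 668 nt. The libraries of the 2 times overlap in all 3 genes. The annotated exon of MLOC_44001 was shallow, with a depth between 2.82 and 11.1.

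Other long stretches were read at a small part of the exon depth in every library that listed them. In MLOC_34860, the 60S ribosomal protein L7, the stretch of 158 nt had a ratio between 0 and 0.0127. For MLOC_87, a peroxidase, the stretch of 270 nt lay between 0.0564 and 0.19. The greatest distance of all recurrent events, 1698 nt in the A5S event of MLOC_5053 (far upstream element-binding protein, a binder of single-stranded nucleic acids), had 0.22, 0.242 and 0.232 in Bass, Harrington and Stirling at 48 h, against 0.097, 0.121, 0.198 and 0.153 at 24 h. In that gene the values at 48 h were all above those at 24 h, which did not pass the test (unadjusted p = 0.0413, limma).

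Where an A3S event and an A5S event lengthen the exons on both sides of 1 intron and their stretches overlap, the pair spans the whole intron. This was judged by coordinates and not by read depth. MLOC_34860, with a stretch read at a small part of the exon depth, also had such a partner. Of the recurrent lengthening events over 100 nt, 12 of 21 A3S and 8 of 19 A5S events had such a partner in a library that listed them. The search was also made library by library, so that a recurrent event was not sought in more libraries than a single-library event. Exon depth, intron length and the number of other alternatives were not matched, and events that share an intron were each counted. A partner was found for between 23.8% and 52.4% of the recurrent A3S events and between 5.88% and 28.6% of the single-library A3S events. For A5S a partner was found for between 22.2% and 43.8% of the recurrent and between 0% and 22.6% of the single-library events. The share was greater in recurrent events in all 8 libraries for both types. In 3 genes both partners were recurrent: MLOC_18525 (overlap of 98 nt, together in 8 libraries), MLOC_61270 (118 nt, in 7) and MLOC_7019 (325 or 328 nt, in 7). Lists of intron retention were not used here, so a retained intron and an alternative site cannot be told apart from these depths.

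The time of germination was compared at 48 h against 24 h with variety as a block, for the depth of the annotated exon and for the stretch ratio. The depths in the fit were divided by the uniquely mapped reads on genes of each library, and the fit was made on log2(depth + 0.5) with limma over 350 events, of which 320 were the recurrent events, 147 of them with 1 library missing. The exon was deeper at 48 h in 25 recurrent events of 22 genes (7.81%) and shallower in 61 events of 57 genes (19.1%) at a limma adjusted p under 0.05. Of all 350 events tested, 8% were called higher and 18.3% lower, shares that rest mostly on the recurrent events themselves. In a fit over 760 annotated and constitutive exons of any event, 6.18% were higher and 12.6% lower, and of the 306 exons of recurrent events 21 (6.86%) were higher and 48 (15.7%) lower. Of the other 454 exons 26 (5.73%) were higher and 48 (10.6%) lower, and the difference between these shares was not tested. The median difference over recurrent events was -0.13 (log2), and after centring on the median the split was 36 higher and 39 lower. Of the 86 calls, 85 had the same direction in every variety with both times, and in 12 the depths of the 2 times overlapped. With 1 variety left out, 11 events were higher and 17 lower without Stirling, 14 and 23 without Bass, 18 and 31 without Baudin, and 28 and 47 without Harrington, and fewer events could be tested in each of these fits.

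The exon with the greatest gain, chosen after its values were seen, was that of MLOC_74793, an unknown protein with an A3S event 3 nt shorter (LG02, minus strand, 94296155 to 94296433). It was read at 331, 541, 397 and 456 at 48 h, against 8.95, 9.91, 227 and 16.4 at 24 h. Stirling at 24 h was far above the other libraries of that time, and still below all libraries of 48 h. The difference was 4.14 ± 0.695 (log2, SE; limma, adjusted p = 0.00766).

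MLOC_77777 is described as a late embryogenesis abundant (LEA) protein, a class that gathers in the maturing seed and shields cells from drying. Its exon, with an A3S event 6 nt shorter (LG02, plus strand, 146330778 to 146331302), was read at 4541, 5415, 3872 and 2098 at 48 h, against 454, 584, 1967 and 310 at 24 h. The groups do not overlap, and the smallest value at 48 h, in Baudin, was close to that of Stirling at 24 h. The difference was 2.61 ± 0.371 (log2, SE; limma, adjusted p = 0.0052). The ratio of the stretch stayed between 0.157 and 0.191 in all 8 libraries.

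The lectin MLOC_59149 (A5S, LG01, plus strand, 88596186 to 88596593) was read at 1166, 2826, 1287 and 2081 at 48 h, against 323, 654, 769 and 421 at 24 h, with no overlap. It was higher by 1.80 ± 0.266 (log2, SE; limma, adjusted p = 0.0052). MLOC_73911 is described as related to receptor expression-enhancing protein 3, of a family that shapes the endoplasmic reticulum in animals. Its exon (A5S, 15 nt shorter, LG02, minus strand, 84805565 to 84805730) was read at 68.5, 136, 87.3 and 53.1 at 48 h, against 6.25, 8.19 and 24.2 in Bass, Harrington and Stirling at 24 h. The event was not listed in Baudin at 24 h, and the difference was 3.12 ± 0.396 (log2, SE; limma, adjusted p = 0.0052). MLOC_51556 (A3S, 3 nt shorter, no description) was read at 118, 98.1, 131 and 124 at 48 h, against 34.5, 44.4, 66.8 and 45.3 at 24 h, a difference of 1.37 (limma, adjusted p = 0.0052).

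MLOC_51316, the gene with 5 recurrent events, counts several times among the calls, since 4 A3S events share its exon. That exon was read at 204, 246, 167 and 201 at 48 h, against 63.1, 55.7, 152 and 59.5 at 24 h. The difference was 1.47 ± 0.32 (log2, SE; limma, adjusted p = 0.0154), with Stirling at 24 h again the highest of its time. The stretch ratios did not move with this depth: that of the exon 58 nt longer was 0.239, 0.216, 0.307 and 0.248 at 48 h, against 0.238, 0.355, 0.234 and 0.219 at 24 h, and the 2 times overlap.

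**Figure D5:**
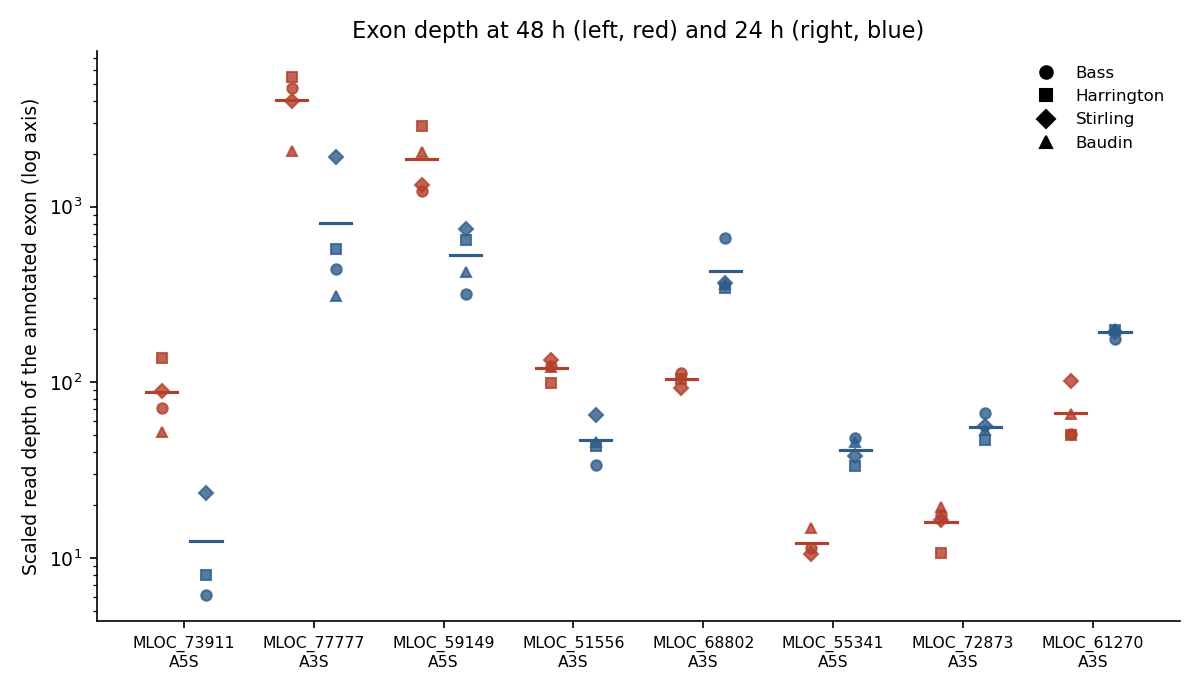
Read depth of the annotated exon, scaled for the uniquely mapped reads on genes (log axis), for the 4 recurrent events with the smallest adjusted p in each direction, at 48 h (red, left) and 24 h (blue, right). Each symbol is a variety and the line is the mean of the varieties. The 2 times do not overlap in any of the 8 exons, and Stirling is the highest at 24 h in MLOC_77777 (1967 before scaling).

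Lower at 48 h was the exon of MLOC_72873 (A3S, 3 nt shorter, LG02, minus strand, 72945312 to 72945500, no description), at 16.8, 10.5, 16 and 19.7 at that time, against 68.6, 47.7, 57.9 and 53.3 at 24 h. The difference was -1.79 ± 0.191 (log2, SE; limma, adjusted p = 0.00429). MLOC_68802, with a domain of nuclear transport factor 2, which brings Ran into the nucleus, was read at 108, 103 and 90.6 in Bass, Harrington and Stirling at 48 h, against 674, 352, 376 and 359 at 24 h. Its event, 3 nt shorter, was not listed in Baudin at 48 h, and the difference was -2.07 ± 0.248 (log2, SE; limma, adjusted p = 0.0052). This was the greatest fall among the calls, and every library of 48 h was below every library of 24 h.

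MLOC_55341, described as retinoblastoma-related protein 1, a repressor of entry into the cell cycle, fell to 10.8, 10.2 and 15.1 in Bass, Stirling and Baudin at 48 h, against 49.5, 33.9, 39.0 and 45.3 at 24 h. Its A5S event was 3 nt shorter (LG01, minus strand, 57575667 to 57576549) and the difference was -1.81 ± 0.224 (log2, SE; limma, adjusted p = 0.0052). The NAC domain protein MLOC_61270, of a family of plant transcription factors, fell to 48.3, 49.7, 98.7 and 67.2 at 48 h, against 181, 203, 199 and 201 at 24 h. The difference was -1.58 ± 0.221 (log2, SE; limma, adjusted p = 0.0052). Its 212 nt stretch, overlapped by that of the A5S event in the same intron, had a ratio of 0.187 to 0.286 at 48 h and 0.199 to 0.275 at 24 h.

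By kind of event, 7 of the 75 recurrent A3S events 3 nt apart were higher at 48 h and 14 (18.7%) lower, and of the other 156 A3S events 14 were higher and 21 (13.5%) lower. In A5S, 4 of 89 events were higher and 26 (29.2%) lower. Of the 40 events of both types that lengthened the exon by more than 100 nt, 0 were higher and 12 (30%) lower, where 18.3% of all events tested were lower. Whether these kinds differ was not tested. Events that share an annotated exon were each counted, such as those of MLOC_7019 lengthened by 430 and 433 nt. The 40 events lengthened by more than 100 nt lay in 34 genes.

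For the stretch ratio, 0 of the 320 recurrent events passed the test, as did 0% of the 350 events tested (limma, smallest adjusted p = 0.223). At an unadjusted p under 0.05 there were 40 recurrent events (12.5%), and 12.3% of the 350 events tested, most of which are the recurrent events. Of the 40, 8 are among the 13 recurrent events with a stretch depth of 0 in every library, where the added 0.5 alone gives the ratio a difference that follows the depth of the exon. With the 265 recurrent events whose stretch was above 0 in every library that listed them, 0 passed the test and 26 had an unadjusted p under 0.05 (limma, smallest adjusted p = 0.277). The median difference of recurrent events was -0.01 (log2). The A5S event of MLOC_38196, described as a regulator of nonsense transcripts-like protein, lengthened the exon by 147 nt. Its ratio was 0.595, 0.686, 0.882 and 0.563 at 48 h, against 0.22, 0.551, 0.376 and 0.241 at 24 h (limma, unadjusted p = 0.00797). It was higher at 48 h in all 4 varieties and was chosen after its values were seen.

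The study's descriptions covered 114 of the 287 genes, with 127 events. They were given for genes that the study had picked from these libraries, so the lists made from them are not independent of the rule. Splicing and RNA binding was described for 9 of the 114 genes (7.89%), against 12 of 552 other described genes (2.17%). The shares were 4.39% against 3.80% for ribosomal proteins and also for transcription factors. They were 5.26% against 3.26% for ubiquitin and proteasome and 3.51% against 1.09% for translation factors. For kinases and phosphatases they were 5.26% against 9.24%, for transport 1.75% against 3.99%, and for late embryogenesis and storage 1.75% against 0.181%. Whether these shares differ was not tested. Of the 10 recurrent events in the splicing and RNA binding genes 9 had a distance that is a multiple of 3 and 7 lengthened the exon. Over all recurrent events the distance was a multiple of 3 in 58.0% of A3S and 49.4% of A5S events. The exon was longer in 33.3% of A3S and 47.2% of A5S events. Stop codons within the longer forms were not examined. Of the 10 events 3 were lower at 48 h and 0 higher, namely the A5S events of MLOC_18525 (-0.94), MLOC_4418 (-0.89) and MLOC_58279 (-1.02). MLOC_4418 is a Quaking-like protein with a KH domain, a fold that binds RNA, and MLOC_58279 an RNA helicase. The A5S event of MLOC_54875, an arginine/serine-rich splicing factor, lengthened the exon by 858 nt at a ratio of 0.462 to 0.805. These differences are log2 values of exon depth. Of all 350 events tested 8% were called higher and 18.3% lower. With centring on the median the call of MLOC_18525 did not hold (limma, adjusted p = 0.0543). The list was made by words in the descriptions and leaves out MLOC_44001, which is related to LUC7. The stretch of 668 nt in MLOC_44001 is not a multiple of 3. The A3S event of MLOC_44001 6 nt shorter was called lower (-0.66; limma, adjusted p = 0.0403). That call did not hold with centring on the median (limma, adjusted p = 0.107).

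Of 5 genes of ribosomal proteins, with 5 events, 0 were higher and 0 lower, and the median log2 difference was 0.20. The lists here and in the next paragraph are small, and their calls stand beside 8% higher and 18.3% lower of all 350 events tested. Whether a list differs from these shares was not tested. Ubiquitin and the proteasome had 6 genes with 7 events, of which 2 were lower, the ubiquitin-conjugating enzyme E2 7 (MLOC_57406, -0.59) and a membrane-anchored ubiquitin-fold protein (MLOC_80730, -1.15), while the median log2 difference of the 7 events was 0.51. The call of MLOC_57406 did not hold with centring on the median (limma, adjusted p = 0.116) or without the variety block (0.272). MLOC_74792, the ubiquitin-fold modifier 1, had recurrent A3S and A5S events in the same intron (6 and 38 nt shorter). Transcription factors had 5 genes with 6 events, of which 1 was higher, the A3S event of MLOC_36345 (0.79), and 2 were lower, a bHLH factor (MLOC_66841, -1.07) and MLOC_4657 (-0.99).

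Kinases and phosphatases had 6 genes with 6 events, all A3S, of which 1 was lower (MLOC_5307, -0.84). They include 2 genes of casein kinase I-like proteins, MLOC_8093 and MLOC_14599, both with an event 8 nt shorter. The list of translation factors had 4 genes with 5 events, of which 1 was lower, an initiation factor 3 subunit (MLOC_54618, -0.82; limma with centring on the median, adjusted p = 0.0874), although 2 of its genes, MLOC_11971 and MLOC_81952, are described as transcription elongation factors. Transport and membrane traffic had 2 genes with 0 calls. Late embryogenesis and storage had 2 genes, the LEA protein MLOC_77777 and the lectin MLOC_59149, whose higher calls at 48 h are those given above. The list was chosen with earlier results of these data known, so it adds nothing to these calls.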

How the data were processed

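For each of the 8 libraries the authors aligned paired-end reads with SOAPaligner/SOAP2 to the Morex genome (IBSC), called junctions with SOAPsplice and deposited a list of A3S and a list of A5S events. Other values in the deposited lists are a start and end, a mean depth of reads and the share of bases covered for each of 3 exons of an event. They are not scaled for library size, and reads per junction were not analysed here. How depth was computed is not given in the sources used here. The deposited note calls the share a minimum depth, but in annotated and constitutive exons it lies between 0.5 and 1. It was read as the covered share, since the product of depth and covered bases came out whole (within 0.05) in all 1320 partly covered annotated exons with a product of length and depth under 1000, against 12.0% where the full length was used. Alternative exon depth was taken as a mean over the full length, which this check did not cover. The depth of a library limits which events could be listed.

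Python 3.11.15 with pandas 2.3.3 was used to read the lists. Shares have 95% Wilson intervals (scipy 1.17.1) and medians have order-statistic intervals. Differences were fitted with limma 3.58.1 in R 4.3.3 (moderated, Benjamini-Hochberg, variety block, at least 3 varieties with both times), tested on simulated data. Depths were scaled by the study's counts of uniquely mapped reads on genes, and stretch depths below 0 were set to 0. Samples pair by variety. Correlations of deviations between the 2 libraries of a variety were between -0.01 and 0.0919 for exon depth.

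Members, gene lists and tests were chosen with earlier results of these data known. Named were the deepest events, those with the greatest distances, genes with at least 2 recurrent events, up to 4 events per direction with the smallest adjusted p, the 3 deepest per gene list and genes named in the paper. Alternatives were other numbers of libraries, other depth matching, another pseudocount, a mean depth of at least 10, centring, no variety block and each variety left out. The fit over all exons and fits of stretches of at least 30 nt and of stretches with a depth above 0 were chosen after seeing the data. Gene descriptions came from the study's supplementary tables. No genome sequence was used here, so splice site sequences are not shown.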

Additional observations from a re-analysis of the deposited data

Results flagged for a closer look

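In 80 groups of 4 values, single values far from the other 3 were sought, and chance alone gives such a value in about 1 in 20 groups. In the exon of the LEA gene MLOC_77777, Stirling stood apart at 24 h with a depth of 1967, against 310 to 584 in the other varieties. In MLOC_66800 (A3S, 131 nt shorter) Stirling at 24 h had 46.8, against 33.3 to 34.4. In MLOC_68802 Bass at 24 h had 674, against 352 to 376. In MLOC_61270 Bass at 24 h had 181, below the 199 to 203 of the other varieties. The share of A3S among depth-matched single-library events was 73.5% in Bass at 48 h.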

How the results depend on the processing

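Requiring all 8 libraries left 173 events, and requiring 6 gave 496. With all 8, A3S made up 78.6% and 62.2% of A5S events kept the frame. Matching on the depth of the constitutive exon gave a median exon length of 162 nt for single-library A3S events. Leaving out 1 variety moved the matched median A3S distance to between 16 and 18 nt, the events higher at 48 h to between 11 and 28, those lower to between 17 and 47, and those with a lower stretch ratio to between 0 and 1. Without Stirling 11 events were higher, 17 lower and 1 had a lower stretch ratio. Without Bass 14 were higher and 23 lower, and without Baudin 31 were lower. In these fits fewer events could be tested. Centring on the median left 39 lower events. Without the variety block 27 events were higher and 62 lower, and 79 of the 86 calls were shared. The 8 events with the smallest adjusted p, 4 in each direction, kept their call in every alternative that could test them. Of 31 other called events in named genes or gene lists none turned direction and 20 lost the call in at least 1 alternative, 13 of them with centring, 5 in the fit over all exons, 1 (MLOC_57406) without the block and up to 13 without a variety (Stirling). In all, 225 other values of the main results stayed within the limits set for them and 13 moved.

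Presence on a list depends on read depth, and absence is not a measured 0. For stretches of at least 30 nt, 0 of 104 recurrent events passed the test of the ratio (limma, smallest adjusted p = 0.249) and 12 had an unadjusted p under 0.05.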

Other observations

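Stirling at 24 h was closest to the 48 h libraries among the exons that were deeper at 48 h. Of the 22 distinct exons of recurrent events called higher, Stirling had the greatest scaled depth of the 24 h libraries in 14, Baudin in 5, Harrington in 2 and Bass in 1. The median of the 48 h depth divided by the 24 h depth in these exons was 1.85 in Stirling, against 2.25 in Harrington, 3.26 in Bass and 3.36 in Baudin. Of the 58 distinct exons called lower, Harrington had the smallest depth of the 24 h libraries in 32, Stirling in 12, Baudin in 8 and Bass in 6. These counts describe exons that were chosen by the same fit, and with 1 library per variety and time a trait of the variety and a trait of the library cannot be told apart.

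By linkage group, LG01 held 105 of the recurrent events (32.8%), against 37.0% of all events, and LG10 held 62 (19.4%), against 15.8%.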
